A study of Homo sapiens with 9 samples.

Results

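Polyamine metabolism was followed through 9 genes, namely ODC1, AMD1, SRM, SMS, SAT1, SMOX, OAZ1, OAZ2 and AZIN1. The members were all probe sets whose platform annotation gives exactly 1 gene symbol equal to 1 of these names. This gave 18 of the 54613 probe sets tested and 9 of 19775 genes, with 1 probe set for ODC1, SRM and SMS, 2 for AMD1, OAZ1 and OAZ2, and 3 for SAT1, SMOX and AZIN1. A further probe set (210593_at) was left out because its annotation pairs SAT1 with a second gene. None of the 18 lay in the dimmest 33.3% of probe sets, which does not show that each was well measured. The SMOX probe set 217074_at, for example, had group means of 5.11 to 5.31.

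The RNA came from the human liver cancer line Huh7, which is an established cell line, and was hybridised to 9 Affymetrix arrays. PGG is penta-O-galloyl-glucose, a plant polyphenol with a glucose core that carries galloyl groups, and it was dissolved in phosphate-buffered saline (PBS). The groups were cells given PBS for 48 h, cells given PGG at 0.1 mg/mL for 6 h and cells given PGG at 0.1 mg/mL for 48 h, with 3 arrays in each. According to the titles the 3 arrays are biological replicates, and the p-values measure the spread between these arrays. The titles of the PBS arrays give 48 h whereas their descriptions give no time on PGG, and the titles were followed. PBS at 6 h was not analysed here, and every comparison of the 6 h arrays with another group therefore also contains time in culture.

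The labelled origin was checked against marker genes. All 8 hepatocyte and hepatoma markers were measured, at log2 signals of 6.93 to 13.55, and ALB and AFP were at 13.42 to 13.54 and 13.06 to 13.55. Their summed log2 signal was 93.94 to 94.50 in PBS, 96.47 to 96.89 in PGG at 6 h and 93.59 to 93.87 in PGG at 48 h. Of the leukocyte list 3 of 4 genes were measured, with PTPRC at 3.27 to 3.53, CD3E at 5.32 to 5.72 and CD14 at 4.59 to 6.31, and their summed log2 signal was 15.03 to 15.31 in PBS, 14.02 to 14.42 in PGG at 6 h and 13.37 to 13.61 in PGG at 48 h. All 3 endothelial markers were measured, with CDH5 at 3.06 to 3.52 and PECAM1 at 5.96 to 6.85, and summed to 14.00 to 14.11, 13.66 to 14.21 and 14.32 to 14.65 in the same order. All 4 fibroblast and stellate markers were measured, at 4.46 to 7.56 with COL1A1 at 7.18 to 7.56, and summed to 22.40 to 22.94, 22.70 to 23.00 and 22.65 to 23.04. Levels of different probe sets are not comparable, and the part of these markers in the results was not tested. The 3′ minus 5′ difference of the ACTB control probe sets, a sign of RNA quality, was 0.96 to 1.57 in PBS, 1.13 to 1.23 in PGG at 6 h and 2.14 to 4.03 in PGG at 48 h. Replicate 2 of PGG at 48 h stood apart with an ACTB difference of 4.03 and a GAPDH difference of 1.83, against 0.13 to 0.39 for GAPDH on the other arrays. These differences move with the 48 h group, and their part in the results at 48 h was not tested. Without that array, the number of member probe sets called against PBS at 48 h was 1 higher and 8 lower, as with it. Replicates 1 and 3 of PGG at 48 h still had ACTB differences of 2.14 and 2.67, so this count cannot tell the part of RNA quality.

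Polyamines are small, positively charged molecules that bind nucleic acids and that growing cells need. Ornithine decarboxylase makes putrescine from ornithine, and 2 synthases then add aminopropyl groups, donated by decarboxylated S-adenosylmethionine, to form spermidine and spermine. Catabolic enzymes acetylate or oxidise the products, and antizymes bind ornithine decarboxylase and send it to the proteasome. In the liver the pathway is known for its rise during regeneration and in tumours, and ODC1 is a textbook target of the transcription factor MYC.

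MYC binds the E-box, whose letters CACGTG read the same on both strands. The promoter sequences of RefSeq (GRCh38.p14), which run from 250 bases before to 50 bases after a transcription start, held 10 windows for 7 of the 9 genes and none for SMOX and AZIN1. An E-box was found in 2 of these 10 windows, against 2548 of all 35116 windows (7.26%). It occurred once in the window of SRM and 2 times in 1 of the 2 windows of ODC1, a number that 233 of all windows (0.664%) reach. Every match in the windows of the members is shown. Each run is on the minus strand, written 5′ to 3′, with the E-box in capitals. The 2 ODC1 matches lay at bases -29 to -24 and 6 to 11, and the SRM match lay at bases -199 to -194, counted from the start with negative positions before it.
ODC1, chr2:10448024-10448053: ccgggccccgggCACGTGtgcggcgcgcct
ODC1, chr2:10447990-10448019: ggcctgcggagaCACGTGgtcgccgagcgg
SRM, chr1:11060200-11060229: ccggccgggcccCACGTGgcccctggagcg
A match is a description of these letters and does not show that MYC was bound there.

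Values are log2 signals after the authors' normalization, and a difference of 1 on that scale is a doubling. A probe set was called higher or lower at an adjusted p under 0.05 from limma, with Benjamini-Hochberg adjustment over all 54613 probe sets. At 6 h, 2 of the 18 member probe sets were higher than PBS and 4 were lower (11.1% and 22.2%), beside 12.2% higher and 12.5% lower over all probe sets. At 48 h, 1 was higher and 8 were lower (5.56% and 44.4%), beside 18.8% and 20.2% over all probe sets. The shares over all probe sets include the dimmest 33.3%, in which none of the 18 lay, and were not matched for signal. The median difference of the 18 was -0.12 at 6 h and -0.18 at 48 h, against 0.00 and -0.02 over all probe sets. The members were chosen with earlier results of these data known, so these values describe them and are no test of the pathway. The study also used a stricter threshold, an adjusted p under 0.005 with a log2 difference beyond 1.5. No member passed it at 6 h and 1, SRM, passed it at 48 h, beside 0.736% and 4.11% of all probe sets. These arrays compare equal amounts of RNA, so fewer cells with a transcript and less transcript per cell cannot be told apart.

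**Figure D1:**
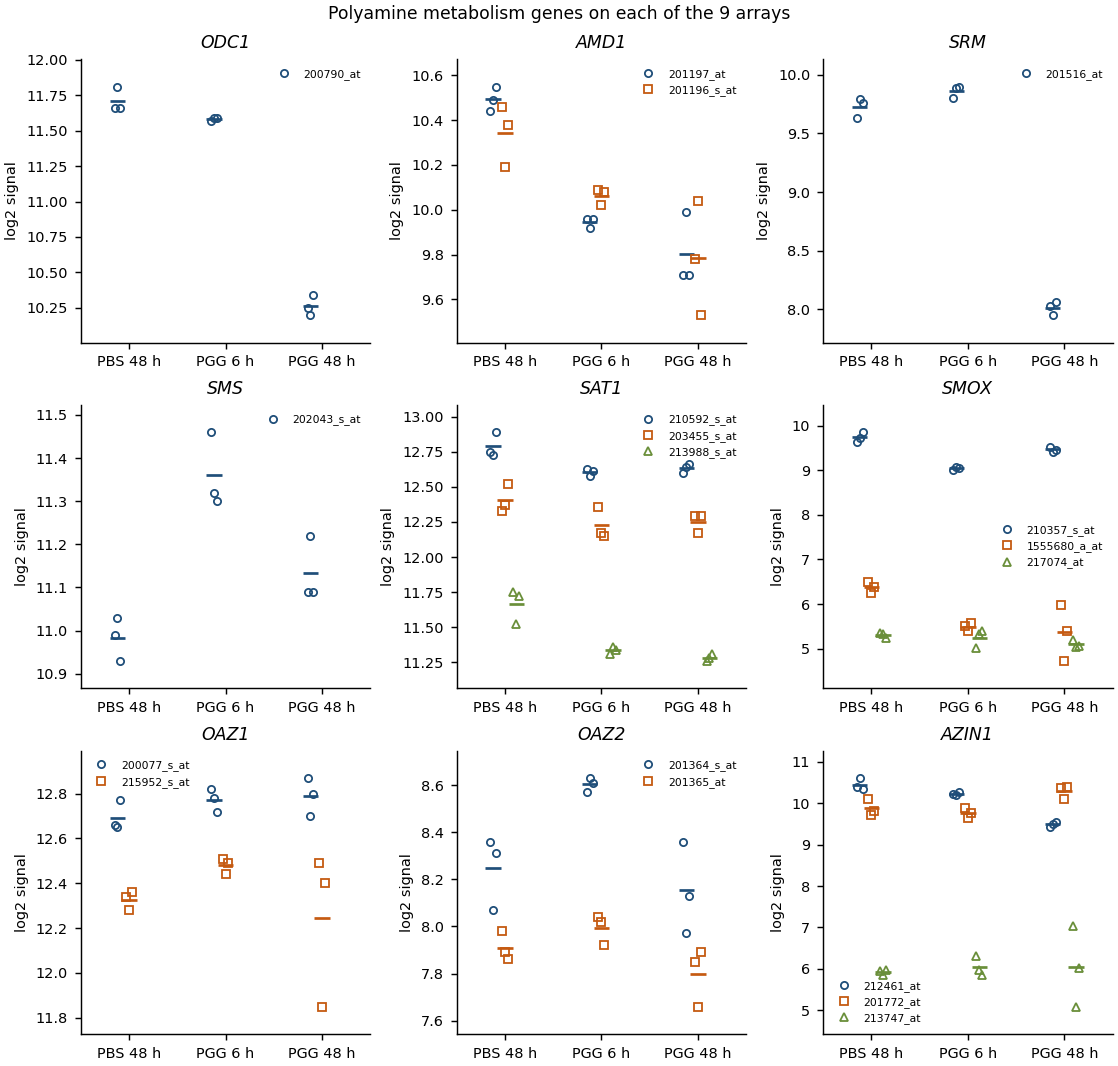
Log2 signal of each member probe set (vertical axis) on each array of PBS 48 h, PGG 6 h and PGG 48 h, with 1 panel per gene, 1 symbol per array and probe set, and a dash at the mean of the 3 arrays. The 3 PGG 48 h arrays of ODC1 (10.20 to 10.34) and of SRM (7.95 to 8.06) lie below all other arrays of their panel, whereas those of OAZ1 and SMS lie within or above the PBS range on 200077_s_at and 202043_s_at. The vertical axes differ between panels and do not start at 0.

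The clearest differences were in ornithine decarboxylase and spermidine synthase, which were called at 48 h and not at 6 h. ODC1 encodes ornithine decarboxylase, the rate-limiting enzyme that makes putrescine. Its probe set (200790_at) read 11.66, 11.81 and 11.66 in PBS, 11.57, 11.59 and 11.59 in PGG at 6 h, and 10.25, 10.20 and 10.34 in PGG at 48 h. The 48 h arrays lay more than 1 log2 unit below every other array, and the 6 h arrays lay just below the PBS arrays. At 6 h the difference from PBS was -0.13 (95% interval -0.28 to 0.02, adjusted p = 0.23 from limma). By 48 h ODC1 fell by 1.45 (SE 0.07, adjusted p = 2.8e-08 from limma), which is 2.73-fold lower.

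SRM encodes spermidine synthase, which turns putrescine into spermidine. It read 9.63, 9.79 and 9.76 in PBS, 9.80, 9.89 and 9.90 in PGG at 6 h, and 8.03, 7.95 and 8.06 in PGG at 48 h (201516_at). All 6 h arrays were above the PBS range and all 48 h arrays were far below it. The difference from PBS was 0.14 at 6 h (95% interval -0.02 to 0.29, adjusted p = 0.20 from limma). At 48 h SRM fell by 1.71 (SE 0.07, adjusted p = 9.2e-09 from limma), which is 3.28-fold lower and the member difference past the study's threshold.

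SMS encodes spermine synthase, the enzyme of the next step, and its values did not follow those of SRM. They were 10.99, 11.03 and 10.93 in PBS, 11.46, 11.32 and 11.30 in PGG at 6 h, and 11.09, 11.22 and 11.09 in PGG at 48 h (202043_s_at). The PGG arrays of both times lay above the PBS arrays. SMS rose by 0.38 at 6 h (SE 0.07, adjusted p = 0.0023 from limma). The difference at 48 h was 0.15 (95% interval -0.01 to 0.31, adjusted p = 0.13 from limma).

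AMD1 encodes S-adenosylmethionine decarboxylase, which makes the aminopropyl donor that both synthases use. Unlike ODC1 and SRM, it was also called lower at 6 h, on 201197_at. The probe set 201197_at read 10.44, 10.49 and 10.55 in PBS, 9.96, 9.92 and 9.96 in PGG at 6 h, and 9.71, 9.99 and 9.71 in PGG at 48 h. Both PGG groups lay below PBS, and replicate 2 of PGG at 48 h was the highest PGG array. AMD1 fell by 0.55 at 6 h (SE 0.08, adjusted p = 0.00052 from limma) and fell by 0.69 at 48 h (SE 0.08, adjusted p = 3.9e-05 from limma). The second AMD1 probe set (201196_s_at) read 10.46, 10.19 and 10.38 in PBS, 10.09, 10.02 and 10.08 in PGG at 6 h, and 9.78, 10.04 and 9.53 in PGG at 48 h. Its differences were -0.28 at 6 h (adjusted p = 0.12 from limma) and -0.56 at 48 h (adjusted p = 0.0026 from limma), so the probe sets had 1 direction and the second was called at 48 h but not at 6 h. Without replicate 2 of PGG at 48 h, which takes part in the shared spread, its 6 h difference was called (adjusted p = 0.042 from limma).

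MYC, which the study names as the target of PGG, was called lower at both times. Its log2 signal (202431_s_at) was 11.65 ± 0.11 in PBS, 9.86 ± 0.05 at 6 h of PGG and 9.79 ± 0.16 at 48 h of PGG (mean ± SD, n = 3 each). MYC fell by 1.79 at 6 h (adjusted p = 2.6e-07 from limma) and fell by 1.86 at 48 h (adjusted p = 3.4e-08 from limma), with a difference of -0.07 between the times (95% interval -0.27 to 0.13, adjusted p = 0.62 from limma). ODC1 and SRM were called lower at 48 h only. The 6 h differences of all 3 genes also contain time in culture, and a difference that was not called is not shown to be absent. Whether the level of MYC bears on theirs was not tested.

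Among the catabolic enzymes, transcripts of SMOX were lower at both times and those of SAT1 were lower on 1 of 3 probe sets. SMOX encodes spermine oxidase, which turns spermine back into spermidine with release of hydrogen peroxide. Its brightest probe set (210357_s_at) read 9.64, 9.72 and 9.85 in PBS, 9.01, 9.07 and 9.05 in PGG at 6 h, and 9.53, 9.40 and 9.46 in PGG at 48 h. The 3 groups did not overlap, and the 48 h arrays lay between the other groups. SMOX fell by 0.69 at 6 h (SE 0.07, adjusted p = 3.5e-05 from limma) and fell by 0.27 at 48 h (SE 0.07, adjusted p = 0.0098 from limma).

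The other SMOX probe sets were dimmer. The probe set 1555680_a_at read 6.50, 6.25 and 6.38 in PBS, 5.51, 5.40 and 5.57 in PGG at 6 h, and 5.99, 4.73 and 5.40 in PGG at 48 h. The 48 h arrays were widely spread, with replicate 2 the lowest of all 9. Its difference was -0.88 at 6 h (adjusted p = 0.019 from limma), a call that was lost without replicate 1 or 3 of PBS or replicate 1 or 2 of PGG at 6 h (-0.89 to -0.82, adjusted p = 0.054 to 0.069). The signal fell by 1.00 at 48 h (adjusted p = 0.0055 from limma), and without replicate 2 of PGG at 48 h the difference was -0.68 (adjusted p = 0.0046 from limma). The remaining probe set (217074_at), at 5.01 to 5.39 on all arrays, was called at neither time, with differences of -0.06 and -0.20, although the latter passed without replicate 1 of PGG at 6 h (adjusted p = 0.045 from limma).

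SAT1 encodes spermidine/spermine N1-acetyltransferase, which acetylates polyamines for export or oxidation. It was among the brightest members, at 11.26 to 12.89 over its probe sets and arrays. The probe set 213988_s_at read 11.75, 11.52 and 11.72 in PBS, 11.31, 11.36 and 11.34 in PGG at 6 h, and 11.26, 11.28 and 11.31 in PGG at 48 h. Both PGG groups lay below PBS on it, and it fell by 0.33 at 6 h (SE 0.07, adjusted p = 0.0060 from limma) and fell by 0.38 at 48 h (SE 0.07, adjusted p = 0.0012 from limma). The brightest SAT1 probe set (210592_s_at) differed from PBS by -0.18 at 6 h (adjusted p = 0.064 from limma) and -0.16 at 48 h (adjusted p = 0.082 from limma). On the remaining one (203455_s_at) the differences were -0.18 and -0.16 and neither was called, so all 3 probe sets had 1 direction with different sizes.

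**Figure D2:**
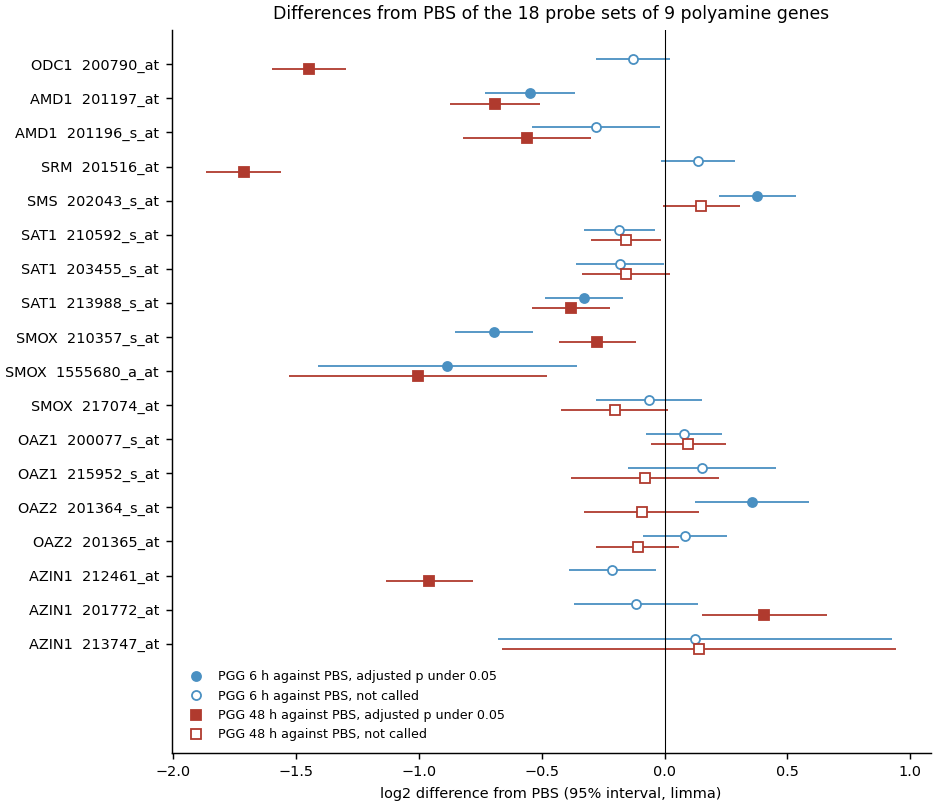
Log2 difference from PBS (horizontal axis) of each of the 18 probe sets at 6 h (circles) and 48 h (squares), with bars for the 95% interval from limma and filled symbols at an adjusted p under 0.05. ODC1 (-1.45) and SRM (-1.71) lie farthest to the left at 48 h and close to 0 at 6 h, and the AZIN1 probe sets 212461_at and 201772_at lie on opposite sides of 0 at 48 h.

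The antizymes differed little between groups. OAZ1 encodes the main antizyme, whose translation needs a polyamine-driven ribosomal frameshift, so its protein level need not follow its transcript. Its brightest probe set (200077_s_at) read 12.66, 12.65 and 12.77 in PBS, 12.82, 12.78 and 12.72 in PGG at 6 h, and 12.87, 12.70 and 12.80 in PGG at 48 h. The groups overlapped, and the differences from PBS were 0.08 at 6 h (95% interval -0.07 to 0.23) and 0.10 at 48 h (95% interval -0.06 to 0.25). The other OAZ1 probe set (215952_s_at) differed by 0.15 and -0.08 and was called at neither time, with replicate 2 of PGG at 48 h at 11.85 and all other arrays at 12.28 to 12.51.

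OAZ2 encodes a second antizyme with the same partner. Its probe set 201364_s_at read 8.36, 8.07 and 8.31 in PBS, 8.57, 8.63 and 8.61 in PGG at 6 h, and 8.36, 7.97 and 8.13 in PGG at 48 h. The 6 h arrays were the highest, and the other groups overlapped. OAZ2 rose by 0.36 at 6 h (SE 0.11, adjusted p = 0.029 from limma), but the call was lost without replicate 2 or 3 of PBS or any 1 array of PGG at 6 h, with differences of 0.27 to 0.39 and adjusted p-values of 0.051 to 0.11. The difference at 48 h was -0.09 (95% interval -0.33 to 0.14). The second OAZ2 probe set (201365_at) differed from PBS by 0.08 and -0.11 and was called at neither time.

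AZIN1 encodes the antizyme inhibitor, a relative of ornithine decarboxylase without its activity that binds antizymes and thereby spares the enzyme. Its probe sets went opposite ways at 48 h. The probe set 212461_at read 10.39, 10.61 and 10.34 in PBS, 10.23, 10.19 and 10.28 in PGG at 6 h, and 9.42, 9.51 and 9.54 in PGG at 48 h. The 48 h arrays lay below all others, and the signal fell by 0.96 at 48 h (SE 0.08, adjusted p = 2.2e-06 from limma) after a difference of -0.21 at 6 h (adjusted p = 0.081 from limma).

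The probe set 201772_at read 10.09, 9.72 and 9.82 in PBS, 9.88, 9.64 and 9.76 in PGG at 6 h, and 10.37, 10.09 and 10.39 in PGG at 48 h. The highest PBS array and the lowest 48 h array had the same value. This probe set rose by 0.41 at 48 h (SE 0.11, adjusted p = 0.015 from limma), and without replicate 2 or 3 of PBS or replicate 1 or 3 of PGG at 48 h the difference was 0.33 to 0.38 with adjusted p-values of 0.052 to 0.063. The remaining probe set (213747_at) was dim and spread over 5.09 to 7.04 in PGG at 48 h, and it was called at neither time. A gene-level direction for AZIN1 at 48 h therefore depends on which probe set stands for it, and where the probe sets lie on the transcript was not analysed here.

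Counted by gene, with each gene represented by its probe set of highest mean, 2 members were higher at 6 h (SMS and OAZ2) and 2 were lower (AMD1 and SMOX), beside 15.5% higher and 15.5% lower over all 19775 genes. At 48 h none was higher and 5 were lower (ODC1, AMD1, SRM, SMOX and AZIN1), beside 22.9% higher and 23.2% lower over all genes. By all 18 probe sets, AZIN1 alone was called in the higher direction at 48 h, on 201772_at, and SAT1 was called lower on a probe set other than its brightest.

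Both PGG groups were also compared directly. No PBS array at 6 h was analysed, so this comparison contains time in culture as well. It therefore cannot tell whether the effect of PGG itself differed between the times. This comparison shares its arrays with those against PBS, so it is no independent evidence of them. Of the 18 probe sets, 2 were higher at 48 h than at 6 h and 5 were lower, beside 18.0% and 18.4% of all probe sets. ODC1 was lower by a difference of -1.32 (adjusted p = 7.0e-08 from limma) and SRM by a difference of -1.85 (adjusted p = 8.5e-09 from limma). The AZIN1 probe set 212461_at differed by -0.74, OAZ2 (201364_s_at) by -0.45 and SMS by -0.23. In the other direction, SMOX (210357_s_at) differed by 0.42 and the AZIN1 probe set 201772_at by 0.52.

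For AMD1 and SAT1 the times were not told apart. AMD1 differed between them by -0.14 on 201197_at (adjusted p = 0.22 from limma) and by -0.28 on 201196_s_at (adjusted p = 0.093 from limma). Without replicate 2 of PGG at 48 h the differences became -0.24 on the first (adjusted p = 0.016 from limma) and -0.41 on the second (adjusted p = 0.0085 from limma), so 1 array decided the call, and the number of lower probe sets was then 7. The SAT1 probe sets differed by -0.05 to 0.03. For SMS the call was lost without replicate 1 of PGG at 6 h (-0.18, adjusted p = 0.11 from limma) and without replicate 1 or 3 of PGG at 48 h (-0.21 each, adjusted p = 0.080 and 0.085).

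The genes whose pattern was most like that of ODC1 were found by the distance between their differences from the PBS mean over the 9 arrays. The nearest 5 were PFN2 at a distance of 0.19, SULT1A1 at 0.21, NME3 at 0.21, ST6GAL1 at 0.23 and MRPL52 at 0.23. Their differences from PBS were -0.16 to -0.10 at 6 h and -1.50 to -1.36 at 48 h. This likeness to ODC1 follows from the way the genes were chosen and is no separate result.

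The rest of the pathway was described by 5 lists with 44 genes, of which 41 were measured. At 6 h 9 were higher than PBS and 14 were lower (22.0% and 34.1%), beside 15.5% and 15.5% of all genes. At 48 h 8 were higher and 22 were lower (19.5% and 53.7%), beside 22.9% and 23.2% of all genes. The same shares over all genes are the background of each list that follows, and a list of few genes gives only a coarse share. The median difference was -0.04 at 6 h and -0.19 at 48 h, against 0.01 and -0.02 over all genes. The called genes of a list had both directions in most lists. The lists were chosen with earlier results of these data known, so their shares describe them and are no test of the pathway. Of the 41 genes 1 lay in the dimmest 33.3% of probe sets, a part that the shares over all genes include.

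Of the other regulators and catabolic enzymes 5 of 6 were measured, with 1 higher and 1 lower at 6 h and 1 higher and 3 lower at 48 h, and a median of -0.44 at 48 h. SAT2, a relative of SAT1 best known for acetylating thialysine, read 9.18, 9.24 and 9.17 in PBS, 8.85, 8.96 and 8.85 in PGG at 6 h, and 11.34, 10.96 and 11.35 in PGG at 48 h. It was lower than PBS on all 6 h arrays and far above it on all 48 h arrays. SAT2 rose by 2.02 at 48 h (adjusted p = 4.0e-08 from limma) after a difference of -0.31 at 6 h (adjusted p = 0.044 from limma), a call that did not last when any 1 array of PBS or of PGG at 6 h was left out (-0.35 to -0.29, adjusted p = 0.067 to 0.13 from limma). The SAT1 differences at 48 h had the opposite sign, but only that of 213988_s_at was called (-0.38).

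NQO1, a quinone reductase that is also known to protect ornithine decarboxylase from degradation, had a difference of -0.13 at 6 h that was not called. At 48 h it fell by 1.32 (adjusted p = 2.6e-08 from limma), and its other probe sets fell by 1.53 and 1.56. OAZ3, known as the antizyme of the testis, fell by 1.23 at 48 h on 222075_s_at, at a low signal of 4.95 to 6.18 over the group means, and its other probe set differed by -0.14 and was not called. PAOX, the oxidase of acetylated polyamines, rose by 0.42 at 6 h and fell by 0.44 at 48 h on its brightest probe set, whereas another (50400_at) rose by 0.79 at 48 h. AZIN2, a second antizyme inhibitor, was called at neither time (-0.15 and -0.08).

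The supply of ornithine and arginine held 13 genes, all measured, with 3 higher and 5 lower at 6 h and 4 higher and 7 lower at 48 h, and medians of 0.02 and -0.17. The arginases, which release ornithine from arginine, were higher at 48 h. ARG2, the mitochondrial form, fell by 1.26 at 6 h (adjusted p = 2.8e-05 from limma) and rose by 1.17 at 48 h (adjusted p = 1.7e-05 from limma), and ARG1, the cytosolic form of the urea cycle, rose by 1.14 at 48 h after a difference of 0.25 at 6 h. These ARG1 values are from 206177_s_at. Of its dimmer probe sets, 231662_at rose by 0.36 at 48 h (adjusted p = 0.011 from limma), and 231663_s_at and 231665_at were called at neither time. ALDH18A1, which makes the precursor of ornithine and proline, rose by 0.62 and 1.00.

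OAT, which interconverts ornithine and a precursor of proline, rose by 0.98 at 48 h (adjusted p = 1.5e-06 from limma) after a difference of 0.14 at 6 h. In the same list ASL differed by -0.36 at 6 h and -1.24 at 48 h (adjusted p = 0.0032 and 1.2e-07 from limma). ASS1 differed by -0.22 and -0.17 (adjusted p = 0.018 and 0.045 from limma).

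Other genes of the list were lower at 48 h. AGMAT, which hydrolyses agmatine to putrescine, rose by 0.57 at 6 h (adjusted p = 9.1e-05 from limma) and fell by 1.91 at 48 h (adjusted p = 3.9e-09 from limma). GATM, which releases ornithine while making the precursor of creatine, rose by 0.39 at 6 h and fell by 1.74 at 48 h. Its probe set 203178_at differed by 0.51 and -1.36, both called. In contrast 1557692_a_at, at a low mean of 2.36 in PBS, rose by 0.31 at 48 h (adjusted p = 0.0088 from limma). The remaining GATM probe sets were called at neither time. SLC25A15, the ornithine carrier of mitochondria, fell by 1.36 at 48 h. The cationic amino acid transporters SLC7A1 and SLC7A2 fell at 6 h, with differences of -1.20 and -1.32, and were called lower at 48 h as well, at -0.72 and -0.32. Averaged over its probe sets, SLC7A2 differed by -0.15 at 48 h and was not called (adjusted p = 0.31 from limma).

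Of the genes for S-adenosylmethionine supply and methylthioadenosine salvage 8 of 8 were measured, with 3 higher and 3 lower at 6 h and 2 higher and 4 lower at 48 h, and medians of 0.16 and -0.33. MAT2A, which makes S-adenosylmethionine in hepatoma cells, fell by 0.49 at 6 h and fell by 1.85 at 48 h (adjusted p = 0.0012 and 2.0e-08 from limma). MTAP, which degrades the methylthioadenosine that both synthases release, differed by -0.77 at 6 h and -1.50 at 48 h, both called. The later salvage enzymes differed in direction. ADI1 rose by 1.21 at 6 h and 1.07 at 48 h and MRI1 rose by 0.59 at 6 h, whereas APIP fell by 0.73 and ENOPH1 fell by 0.48 at 48 h. At 6 h ENOPH1 fell by 0.27 (adjusted p = 0.036 from limma), a call lost without PBS replicate 1 or 2 or any 1 array of PGG at 6 h (-0.28 to -0.23, adjusted p = 0.078 to 0.12). MAT1A, the enzyme of normal adult liver, rose by 0.32 at 6 h from a mean of 5.58, a call lost without PBS replicate 3 (0.26, adjusted p = 0.059 from limma) or PGG 6 h replicate 2 (0.30, adjusted p = 0.055 from limma). MAT2B, the regulatory subunit, rose by 0.24 at 48 h, but not with the mean of its probe sets (0.10, adjusted p = 0.16 from limma).

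Of the transport genes 11 of 13 were measured, with 2 higher and 2 lower at 6 h and 1 higher and 6 lower at 48 h, and medians of -0.04 and -0.32. CAV1, which encodes caveolin-1 and has been linked to polyamine uptake, rose by 0.60 at 6 h and 3.04 at 48 h (adjusted p = 6.6e-10 from limma at 48 h), the 1 transport gene that was higher at 48 h. ATP13A3, a polyamine transporter, fell by 0.44 and 0.46, and SLC3A2, the heavy chain of amino acid transporters, fell by 1.17 at 6 h and fell by 0.43 at 48 h. GPC1, a heparan sulfate carrier, rose by 0.33 at 6 h and fell by 0.32 at 48 h. The early call was lost without PBS replicate 2 or PGG 6 h replicate 2 or 3 (0.28 to 0.32, adjusted p = 0.064 to 0.082) and the late one without PBS replicate 3 (-0.29, adjusted p = 0.054). SLC47A1, an exporter of organic cations, SLC18B1, the vesicular polyamine transporter, and ATP13A2, the lysosomal polyamine exporter, fell by 1.00, 0.85 and 0.68 at 48 h.

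Spermidine is also the substrate for hypusine, a modified lysine of the translation factor eIF5A. Of these 4 genes 3 were lower at 6 h and 2 at 48 h, and none was higher, beside 15.5% and 23.2% lower over all genes, with medians of -0.23 and -0.16. EIF5A2 fell by 1.13 at 6 h and fell by 1.17 at 48 h on its brightest probe set (adjusted p = 8.1e-07 and 1.2e-07 from limma). Its probe set 235289_at differed by -0.69 and -0.66, both called. On 220198_s_at the difference was -0.21 at 6 h, not called (adjusted p = 0.18 from limma), and -0.45 at 48 h (adjusted p = 0.0045 from limma). DHPS, which starts hypusination, fell by 0.23 and 0.19, and DOHH, which completes it, fell by 0.24 at 6 h and differed by -0.13 at 48 h. The 6 h call of DOHH was lost without replicate 2 or 3 of PBS or replicate 1 or 3 of PGG at 6 h (-0.23 to -0.19, adjusted p = 0.081 to 0.13), and the 48 h call of DHPS without PBS replicate 2 (-0.18, adjusted p = 0.063). EIF5A differed by 0.14 and 0.01 on its brightest probe set and was not called, and 201122_x_at differed by -0.05 and -0.11 and was not called either. In contrast 201123_s_at, with a group mean of 5.55 in PBS, fell by 1.59 at 48 h (adjusted p = 0.0027 from limma). Its arrays were widely spread, with an SD of 0.76 in PBS and 0.47 in PGG at 48 h.

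**Figure D3:**
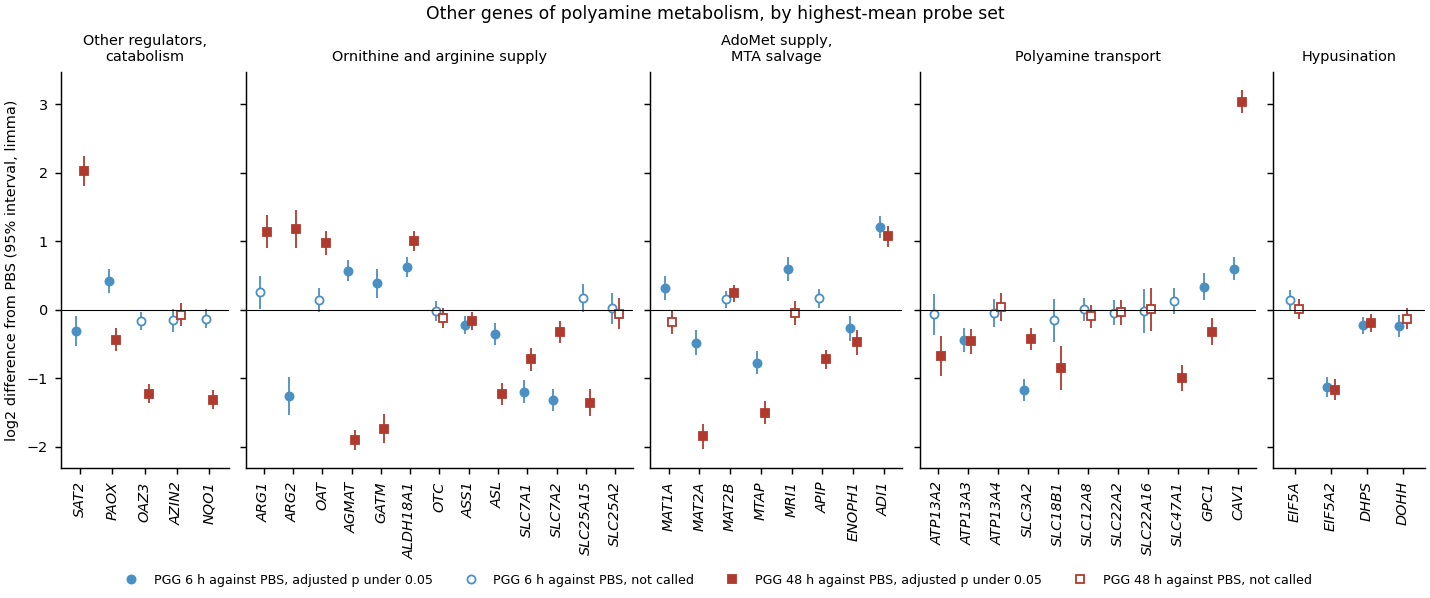
Log2 difference from PBS (vertical axis) of the 41 measured genes of the 5 lists at 6 h (circles) and 48 h (squares), each by its probe set of highest mean, with bars for the 95% interval from limma and filled symbols at an adjusted p under 0.05. CAV1 (3.04) and SAT2 (2.02) are the highest points at 48 h, and AGMAT (-1.91) and MAT2A (-1.85) are the lowest.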

How the data were processed

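Huh7 RNA was hybridised to 9 Affymetrix arrays, 3 per group. By the submitters' processing notes, the authors ran RMA within Affymetrix Expression Console, of which the sources used here give no version, and the values they deposited are log2 signals of probe sets. Such log2 values understate changes of dim probe sets, and RMA aligns array distributions, so a change in total RNA would not be seen. The array medians lay between 5.16 and 5.20. No counts exist, and the 3 arrays per group limit the precision. Of 54675 probe sets, 62 controls were left out.

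From these values, limma 3.58.1 in R 4.3.3 was run over all 9 arrays with 1 mean per group (lmFit and eBayes), with Benjamini-Hochberg adjustment over 54613 probe sets. The study itself used a t-test per probe set with q-values, which was run as an alternative. Gene symbols came from the platform annotation, in which 41091 probe sets carry 1 symbol. Same-numbered arrays of 2 groups did not deviate together (correlations of -0.09 to 0.16), so no block was used. The limma fit was tested on simulated data for the comparison of PGG at 48 h with PBS.

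Named were all members, up to 3 higher and 3 lower genes per list and comparison with PBS, every gene of lists of 6 or fewer, MYC and the 5 genes nearest to ODC1. OAT, ASL, ASS1 and the other probe sets of PAOX, OAZ3, NQO1, EIF5A, EIF5A2, GATM and ARG1 were named after their values were seen. The members and lists were chosen with earlier results of these data known. Protein, promoter and animal experiments were not analysed here.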

Additional observations from a re-analysis of the deposited data

Results flagged for a closer look

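These results were listed because the signal in PGG at 48 h differed from that in PGG at 6 h in the direct comparison of both groups. Among the members the log2 difference of 48 h from 6 h was -1.32 for ODC1, -1.85 for SRM, -0.23 for SMS, -0.45 for OAZ2 (201364_s_at), 0.42 for SMOX (210357_s_at), -0.74 for AZIN1 on 212461_at and 0.52 for AZIN1 on 201772_at. Among the other genes of the pathway that had called differences of opposite sign from PBS at the 2 times, it was 2.33 for SAT2, -0.86 for PAOX on 238333_s_at, -2.48 for AGMAT, -2.13 for GATM, 2.44 for ARG2 and -0.65 for GPC1. No PBS array at 6 h was analysed, so the differences at 6 h and those of 48 h from 6 h also contain time in culture. The ACTB 3′ minus 5′ difference was 2.14 to 4.03 in PGG at 48 h against 1.13 to 1.23 in PGG at 6 h. The part of either in these values was not tested. The SMS call was lost without PGG 6 h replicate 1 (-0.18, adjusted p = 0.11 from limma) or PGG 48 h replicate 1 or 3 (-0.21 each). Another PAOX probe set (50400_at) went the other way, with a difference of 0.46 (adjusted p = 0.013 from limma). The OAZ2 and SMS calls were also lost with the methods' t-test. For SAT2 the 6 h call against PBS was lost when any 1 array of PBS or of PGG at 6 h was left out. For GPC1 the calls against PBS at both times were lost with the methods' t-test.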

How the results depend on the processing

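Each of the 54 member results was recomputed under 17 settings. Of the 918 values, 875 kept their side of the threshold, 25 lost the call and 18 gained one. No called member value changed sign, while uncalled ones could, such as 1555680_a_at of SMOX at 48 h against 6 h (0.20 without PGG 48 h replicate 2, -0.12 with it). ODC1 and SRM were called lower at 48 h under all 17. With the methods' t-test at an adjusted p under 0.05, the member probe sets at 48 h were 0 higher and 5 lower instead of 1 and 8, and 3 instead of 5 were lower at 48 h than at 6 h. The calls lost against PBS at 48 h were those of AMD1 (201196_s_at), SMOX (210357_s_at and 1555680_a_at) and AZIN1 (201772_at). It also lost SAT1 (213988_s_at, adjusted p = 0.056) and OAZ2 (201364_s_at, adjusted p = 0.075) at 6 h, and OAZ2 (adjusted p = 0.057) and SMS (adjusted p = 0.081) at 48 h against 6 h, and, of the other named genes, ENOPH1, GPC1 and DOHH at 6 h and GPC1, SLC18B1 and ATP13A2 at 48 h (adjusted p = 0.053 to 0.11). At the study's threshold that test called 0, 1 and 1 members in the 3 comparisons, as limma did, and 311, 1877 and 1464 of all probe sets against 402, 2246 and 1654. With 1 array left out, members numbered 1 to 2 higher and 3 to 5 lower at 6 h, 0 to 1 higher and 8 to 9 lower at 48 h, and 2 higher and 4 to 7 lower at 48 h against 6 h. Of 1728 values of the other named genes, 2 reversed, both with the mean of all probe sets of a gene, namely PAOX at 48 h (0.041) and EIF5A at 48 h (-0.56). With that mean the calls of GPC1 (0.13) and DOHH (-0.07) at 6 h and of SLC7A2 (-0.15) and MAT2B (0.10) at 48 h were lost. With replicate numbers as a block, the arrays sharing only a number, the member counts were 2 higher and 4 lower at 6 h and 1 and 8 at 48 h, as without it, and the lists had 12 instead of 14 lower genes at 6 h and 21 instead of 22 at 48 h.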
